A study of Mus musculus with 18 samples.

Results

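TNFR2 block in JAK2V617F+ cells was examined as the comparison of Lin-Kit+GFP+ progenitor cells cultured with a TNFR2 blocking antibody (TNFR2 BA) against the same kind of cells cultured without antibody. The members were chosen by sample title, 3 TNFR2 BA JAK2V617F+ arrays (replicates 1 to 3) and 2 untreated JAK2V617F+ arrays (replicates 1 and 2), which makes 5 of the 18 arrays of the series. The third untreated JAK2V617F+ array was excluded by the study for quality and is shown only as a check. All 10335 probe sets of the table were compared.

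The marrow came from Balb/c mice with an established myeloproliferative neoplasm (MPN) driven by a retrovirus that carries JAK2V617F and a GFP tag, so GFP+ cells are called JAK2V617F+ and GFP- cells of the same cultures JAK2V617F-. Cells were cultured for 16 h in RPMI with serum, IL-3 at 50 ng/mL and SCF at 100 ng/mL, and antibodies were used at 10 μg/mL. All groups share the disease, the cytokines and the culture time, and differ only in antibody and GFP. Other groups used here are JAK2V617F+ cells with a TNFR1 blocking antibody (TNFR1 BA, 3 arrays) and JAK2V617F- cells, untreated or with TNFR2 BA (3 arrays each). GFP marks cells that express the retroviral construct, so expression of JAK2V617F is set by the vector and not by the Jak2 promoter, and marrow of several mice went into each of the 3 experiments. JAK2V617F- cells are bystanders in a diseased marrow and not cells of healthy mice. No isotype antibody control is among the groups. The labels give neither age nor sex of the mice.

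TNF acts through 2 receptors. TNFR1 (Tnfrsf1a) carries a death domain and recruits TRADD, which can lead to NF-κB activity, to MAP kinase activity or to caspase-8 and cell death. TNFR2 (Tnfrsf1b) has no death domain, binds TRAF2 directly and brings the cellular inhibitors of apoptosis cIAP1 (Birc2) and cIAP2 (Birc3) into its complex. XIAP is a relative of the cIAPs that binds and blocks caspases, and JNK1 (Mapk8) is a stress kinase downstream of both receptors. Kit+ progenitors depend on SCF, the ligand of Kit, and on cytokines that signal through JAK2.

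Values are log2 signals per probe set, on which 1 unit is a doubling. The lowest value in the table was 2.22 and the highest 15.49, and no detection calls came with them, so a gene near 2.22 has no measured order there and its difference may be understated. The median signal of the 5 arrays lay between 7.42 and 7.69, against 6.05 on the excluded array. Correlations over all probe sets were 0.713 to 0.765 among the TNFR2 BA arrays, 0.668 between the 2 untreated arrays and 0.637 to 0.780 across the groups, and these ranges overlapped. The median standard deviation within a group was 1.45 log2 units, and the number of arrays limits the precision. Kit ranged from 5.81 to 9.95 on the 5 arrays and the progenitor and granulocyte protease gene Elane from 12.91 to 14.52. Of the lineage genes, the T cell gene Cd8a stayed at 2.60 or less, but Itgam ran from 3.18 to 6.98 and Adgre1 from 4.42 to 7.89. The T and NK cell gene Cd247 ran from 9.54 to 10.24. The leukocyte gene Ptprc (CD45), which these progenitors would carry, was at the lowest value of 2.22 on all 3 TNFR2 BA arrays and at 2.22 and 9.75 on the untreated arrays. Tnfrsf1a, Tnfrsf1b and Jak2 were all well above the lowest value, Jak2 at 8.33 to 10.77. The lineage genes Cd3e, Cd4 and Ly6g had no probe set with a single gene symbol here.

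TNFR2 BA changed 3 probe sets past an adjusted p of 0.05 in limma, which is 0.029% of the 10335 tested. Cry2 and Xiap rose and Itm2a fell, by 5.67, 8.37 and 6.73 on the log2 scale. At an unadjusted p under 0.05 there were 544 probe sets (5.26%), where 517 would be reached by chance alone, 329 of them with a higher mean under TNFR2 BA (3.18%) and 215 with a lower mean (2.08%). The 3 TNFR2 BA arrays did not overlap the 2 untreated arrays on 1614 probe sets (15.6%), 863 higher (8.35%) and 751 lower (7.27%). For 3 against 2 arrays in random order, the probability of such separation is 0.2 (exact permutation test). The observed share was therefore not above what random order gives. Over all probe sets the median difference was 0.06 and 52.9% of differences were positive. Large differences were common, with 188 probe sets beyond 4 log2 units in either direction, the 3 called ones among them. The median standard error was 1.35. Arrays were also simulated with normal noise of each probe set's within-group spread and without a lowest value. There this comparison recovered 34% of the shifts that were set to 4 log2 units and 86% of those set to 8. In addition, 11 probe sets without a shift were called. On the 5 real arrays 6.63% to 9.52% of probe sets lay near the lowest value, so these rates may not hold for dim genes.

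The promoter windows of the 3 genes that passed the test are shown because these genes carry the only calls, 2 that rose and 1 that fell. Sequences are those of RefSeq on GRCm38.p6, run 5′ to 3′ on the strand of the gene from 250 bases before to 50 bases after the transcription start, and capitals mark matches to the motifs searched. Cry2 lies on the minus strand at chr2:92434020-92434319, the first of 3 listed Xiap starts on the plus strand at chrX:42068148-42068447, and Itm2a on the minus strand at chrX:107403311-107403610.
Cry2: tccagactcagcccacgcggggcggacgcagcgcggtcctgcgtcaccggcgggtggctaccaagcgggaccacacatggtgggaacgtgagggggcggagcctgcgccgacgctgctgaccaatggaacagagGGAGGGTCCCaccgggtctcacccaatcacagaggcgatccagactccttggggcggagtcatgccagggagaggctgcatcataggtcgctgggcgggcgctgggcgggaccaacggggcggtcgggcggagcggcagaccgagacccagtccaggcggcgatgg
Xiap: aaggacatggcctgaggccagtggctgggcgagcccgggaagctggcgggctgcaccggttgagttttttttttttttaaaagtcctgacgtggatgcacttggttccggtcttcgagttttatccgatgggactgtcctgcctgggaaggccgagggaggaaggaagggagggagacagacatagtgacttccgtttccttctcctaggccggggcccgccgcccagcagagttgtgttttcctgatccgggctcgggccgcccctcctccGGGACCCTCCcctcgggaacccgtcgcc
Itm2a: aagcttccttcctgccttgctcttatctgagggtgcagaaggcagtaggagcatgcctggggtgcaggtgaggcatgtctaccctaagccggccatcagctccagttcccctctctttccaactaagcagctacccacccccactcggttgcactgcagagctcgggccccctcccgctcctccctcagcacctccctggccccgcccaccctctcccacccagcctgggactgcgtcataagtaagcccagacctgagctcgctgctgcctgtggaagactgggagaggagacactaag
4 motifs were searched on both strands, the E-box CACGTG that clock factors and MYC bind, the STAT motif TTCNNNGAA, the AP-1 motif TGANTCA of JNK-regulated factors, and the NF-κB consensus. The NF-κB consensus matched once in the Cry2 window and once in the Xiap window, and none of the motifs matched in the Itm2a window. Among the 10 raised and 10 lowered genes described further on, 4 windows (Cry2, Csf1, Xiap and Zfp644) and 2 windows (Rsl1 and Susd3) held an NF-κB match, against 9.74% of the 7908 measured genes with a listed promoter. The E-box was found in 1 window of each group of 10 (Asxl2 and 3110082I17Rik) against 10.9% of measured genes, and the STAT motif in 1 (Agk) and 2 (Fancl and Rsl1) against 6.79%. AP-1 was found in Slco2b1 alone of the 20, against 4.73%. A match describes letters in these windows and not binding.

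Cry2 encodes cryptochrome 2, a repressor of the circadian clock. Its log2 signal was 8.36, 8.78 and 9.80 on the TNFR2 BA arrays and 3.24 and 3.37 on the untreated arrays. Every treated array was therefore more than 4 log2 units above every untreated array, and the excluded untreated array, at 3.37, sat with the other two. The difference was 5.67 ± 0.86 (SE, 3 against 2 arrays), with an adjusted p of 0.0291 in limma. Untreated JAK2V617F- cells measured 9.05 ± 0.35 (SD, n = 3), so the level under TNFR2 BA, 8.98 ± 0.74 (SD, n = 3), lay close to that of the GFP- cells and the untreated JAK2V617F+ arrays stood apart as low.

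Xiap encodes the X-linked inhibitor of apoptosis. It measured 9.83, 10.53 and 12.01 with TNFR2 BA against 2.53 and 2.31 without antibody, the widest gap among the genes that passed. Both untreated values lay next to the lowest value in the table, while the excluded untreated array read 6.57, between the groups. The difference was 8.37 ± 1.32 (SE, 3 against 2 arrays), adjusted p 0.0291 in limma. Untreated JAK2V617F- cells were at 10.24 ± 1.34 (SD, n = 3), within the range of the TNFR2 BA arrays.

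Itm2a encodes a type II membrane protein of the BRICHOS family. It measured 3.99, 2.30 and 2.30 with TNFR2 BA and 8.92 and 10.25 in untreated JAK2V617F+ cells, so the antibody arrays were near the lowest value and the untreated arrays high. The excluded untreated array read 2.30 and so lay with the treated arrays. The difference of -6.73 ± 1.09 (SE) had an adjusted p of 0.0291 in limma. JAK2V617F- cells without antibody measured 3.11 ± 1.40 (SD, n = 3).

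Within replicate numbers 1 and 2 the TNFR2 BA array minus the untreated array was 5.12 and 5.41 for Cry2, 7.30 and 8.22 for Xiap, and -4.94 and -7.95 for Itm2a. These 3 calls depend on the arrays and on the model. With the replicate number as a block none passed, with adjusted p of 0.0612 for Cry2 and Xiap and 0.0672 for Itm2a in limma, and with the excluded array put back only Cry2 passed (adjusted p 0.0174), while Xiap had a difference of 6.98 (adjusted p 0.238) and Itm2a of -4.30 (adjusted p 0.629). No probe set passed without untreated replicate 2, without TNFR2 BA replicate 2 or without TNFR2 BA replicate 3, whereas 5 passed without TNFR2 BA replicate 1 and 55 without untreated replicate 1, each time with these 3 genes among them. Without replicate number 1 in all groups 12 probe sets passed, and 0 of these 3 genes were among them (adjusted p 0.0838 for Cry2, 0.0784 for Xiap and 0.0695 for Itm2a in limma). For a single gene, an exact permutation test of 3 against 2 arrays cannot go below p = 0.2, two-sided.

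**Figure D1:**
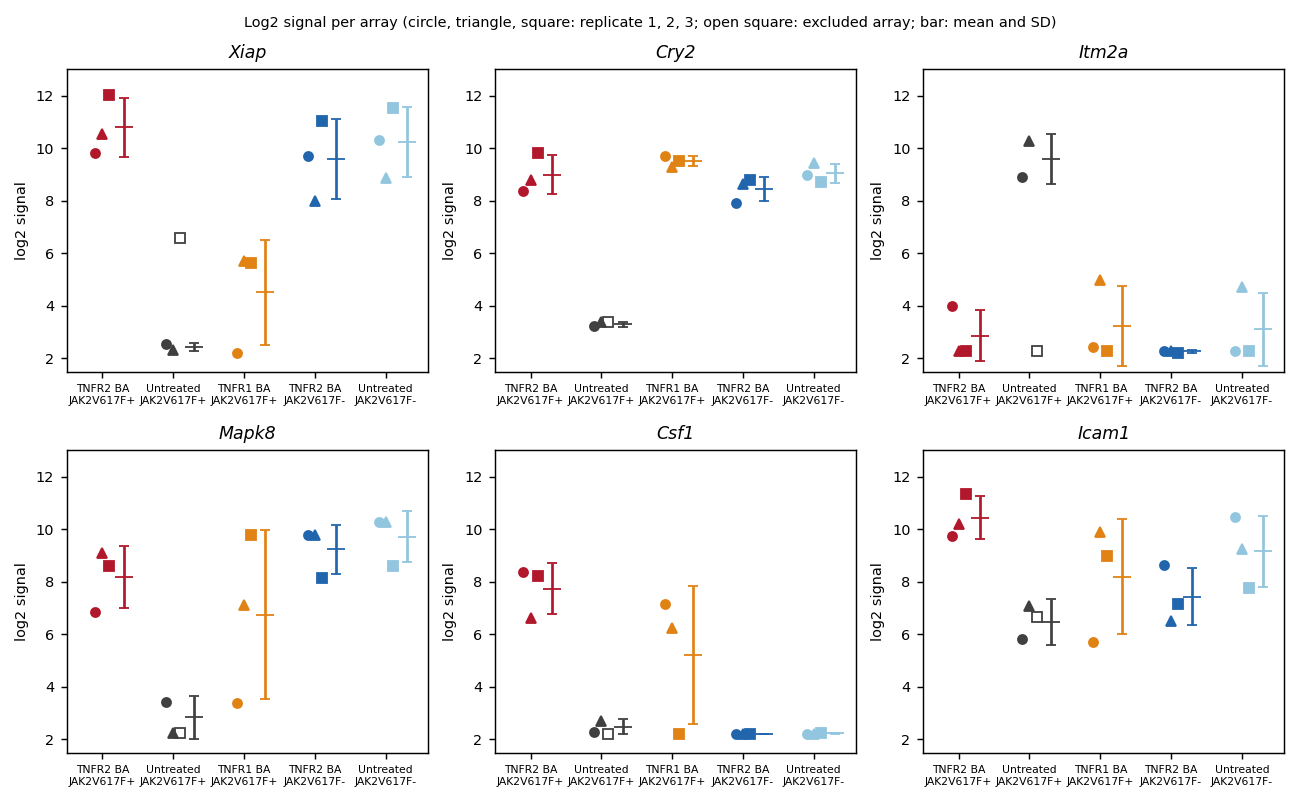
Log2 signal (vertical axis) of 6 genes on each array of 5 groups, with filled marks for replicates 1 to 3, the mean and SD beside them, and an open square for the excluded untreated JAK2V617F+ array. For Cry2, Xiap and Mapk8 the 2 untreated JAK2V617F+ arrays lie at 3.42 or below while both JAK2V617F- groups and the TNFR2 BA JAK2V617F+ arrays lie at 6.83 or above.

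**Figure D2:**
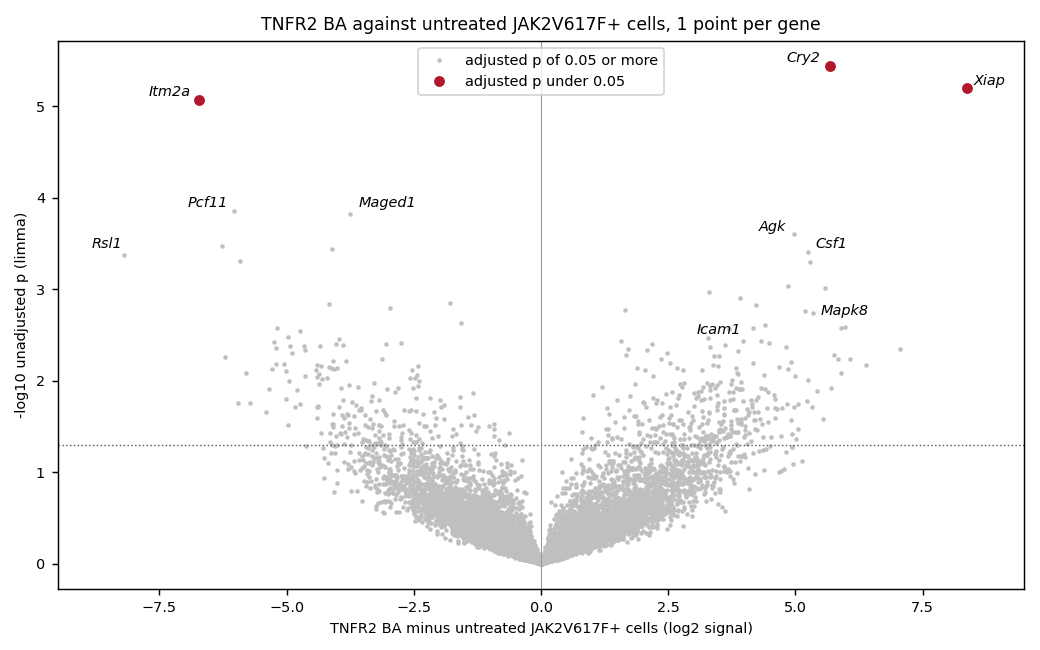
Difference between TNFR2 BA and untreated JAK2V617F+ cells (horizontal axis, log2 signal) against -log10 of the unadjusted limma p (vertical axis), 1 point per gene, with a dotted line at the unadjusted limit of 0.05. The 3 genes past an adjusted p of 0.05 (Cry2, Xiap and Itm2a) stand above a cloud that reaches beyond 4 log2 units on both sides.

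Counts of gene lists below use 1 probe set per gene, the brightest, for 9636 genes. Over all of them 512 genes had an unadjusted p under 0.05 (5.31%), 314 with a higher and 198 with a lower mean under TNFR2 BA (3.26% and 2.05%), and 1524 had groups that did not overlap (15.8%, with 823 or 8.54% higher and 701 or 7.27% lower). The median difference over all genes was 0.07. No list member other than Xiap, Cry2 and Itm2a passed the adjusted threshold, so the other genes are given by their values.

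TNF receptors and their adaptors, 26 measured genes, had a median difference of 0.18, with 14 positive. Tnfrsf1b, the target of the antibody, read 11.73, 10.94 and 11.82 with TNFR2 BA and 11.25 and 10.90 without, a difference of 0.42 whose 95% interval ran from -1.22 to 2.07. Tnfrsf1a read 8.81, 9.64 and 10.01 against 8.41 and 10.73 (difference -0.09, 95% interval -1.92 to 1.75). The groups overlapped for both receptors. Of the list, 2 genes had an unadjusted p under 0.05 with a higher mean and 1 with a lower mean. Nsmaf, whose product FAN couples TNFR1 to neutral sphingomyelinase, read 8.31, 9.87 and 6.85 against 2.22 and 5.29. Sharpin, a subunit of the linear ubiquitin ligase complex, read 12.66, 12.40 and 12.43 against 11.80 and 11.55. Groups did not overlap for either gene, and the sizes differed, 4.59 ± 1.79 for Nsmaf and 0.82 ± 0.34 for Sharpin (SE, limma adjusted p 0.854 and 0.884). Tradd, the adaptor of TNFR1, read 10.68, 9.52 and 6.76 against 12.13 and 10.50, with overlap. Cflar, which encodes the caspase-8 inhibitor c-FLIP, read 2.73, 2.22 and 2.68 against 8.01 and 2.54, so its mean difference of -2.73 came from untreated replicate 1 alone.

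Inhibitors of apoptosis and their antagonists comprised 9 measured genes with a median difference of 0.86. Xiap was the only member with an unadjusted p under 0.05, and 8 of 9 differences were positive. The median was 0.115 within replicate number 1 and 1.33 within replicate number 2. The mean signal of the list was 7.77 on untreated replicate 1 and 6.44 on untreated replicate 2. Birc2 (cIAP1) read 7.85, 4.58 and 8.90 with TNFR2 BA against 8.46 and 7.63, and Birc3 (cIAP2) read 9.61, 7.42 and 10.57 against 8.55 and 8.14. Both cIAP genes overlapped between the groups, with differences of -0.94 (95% interval -3.19 to 1.32) and 0.86 (95% interval -2.63 to 4.35). Diablo, the mitochondrial antagonist of the IAPs, read 10.15, 10.74 and 10.27 against 10.03 and 8.02, with no overlap but a difference of 1.36 ± 0.73 (SE, limma adjusted p 0.979). Caspases and apoptosome genes (13 measured) and the BCL2 family (13 measured) held 0 genes with an unadjusted p under 0.05 in limma, with medians of 0.24 and 0.25.

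Of 36 measured genes of the JNK and other MAP kinase cascades, 1 had an unadjusted p under 0.05, Mapk8 itself, and the median difference was 0.65. Mapk8 (JNK1) read 6.83, 9.10 and 8.61 with TNFR2 BA against 3.42 and 2.25 in untreated cells, and 2.25 on the excluded array. All treated arrays lay above all untreated arrays, and untreated JAK2V617F- cells measured 9.71 ± 0.96 (SD, n = 3). The difference of 5.34 ± 1.46 (SE) had an unadjusted p of 0.00183 and did not pass adjustment (0.755 in limma). Mapk8ip3, the scaffold JIP3 that holds JNK modules together, read 6.77, 8.80 and 9.68 against 2.88 and 4.09 (difference 4.93 ± 2.38, limma adjusted p 0.944). Map2k3, an upstream kinase of p38, read 11.24, 6.80 and 4.64 against 10.44 and 11.54, with overlap. Of the 36 genes, groups did not overlap for 7 with a higher and 2 with a lower mean under TNFR2 BA. Over all genes the shares were 8.54% and 7.27%. The list median turned to -0.19 when the excluded array was put back, and without single arrays or replicate numbers it ran from 0.02 to 0.58.

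Among 15 measured NF-κB subunits and kinases, 2 genes had an unadjusted p under 0.05 on each side and the median difference was 0.12. Commd7, an NF-κB regulator of the COMMD family, read 4.35, 8.40 and 8.59 against 2.28 and 2.28. Tbk1, a kinase of the innate immune response, read 9.02, 12.23 and 10.78 against 9.55 and 7.25, with overlap. On the other side Ikbkb, the catalytic IKKβ subunit, read 3.59, 3.59 and 3.52 against 5.35 and 10.44, and Rel, the c-Rel subunit, 2.86, 5.52 and 7.68 against 9.11 and 7.97. The groups did not overlap for Ikbkb or Rel, but limma adjusted p was 0.922 for both, and the excluded array read 4.22 and 2.22.

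NF-κB target genes (26 measured) had a median difference of 0.60, with 17 positive, and 3 had an unadjusted p under 0.05, all with a higher mean, Csf1, Icam1 and Vcam1. Csf1, the gene of macrophage colony stimulating factor, read 8.36, 6.61 and 8.21 with TNFR2 BA against 2.28 and 2.68, and 2.22 on the excluded array. It lay at 2.22 to 2.25 on all 6 JAK2V617F- arrays with TNFR2 BA or no antibody, and TNFR1 BA JAK2V617F+ arrays read 7.13, 6.25 and 2.22. Its difference of 5.25 ± 1.20 (SE) had an adjusted p of 0.400 in limma. Icam1, an adhesion molecule for leukocyte integrins, read 9.75, 10.20 and 11.35 against 5.83 and 7.09, with the excluded array at 6.66 (difference 3.97 ± 1.19, limma adjusted p 0.763). Vcam1, the ligand of the integrin VLA-4, read 2.46, 9.03 and 10.02 against 2.46 and 2.46, so replicate 1 of the treated cells was as low as the untreated arrays. Ccl4, a chemokine for monocytes, read 5.68, 5.56 and 4.68 against 3.48 and 3.26. The list median stayed between 0.22 and 0.77 without single arrays or replicate numbers and was 0.46 with the excluded array.

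Clock genes (16 measured) had a median difference of 0.09, 8 of them positive, and held 2 genes with an unadjusted p under 0.05, Cry2 and Per2. Per2, the partner of cryptochromes in the repressor complex, read 9.38, 6.29 and 7.94 with TNFR2 BA against 4.85 and 3.01, with the excluded array at 3.21 (difference 3.93 ± 1.62, limma adjusted p 0.888). Csnk1d, the kinase CK1δ that phosphorylates PER proteins, read 7.37, 7.73 and 7.09 against 4.38 and 4.53, but 7.12 on the excluded array. Groups did not overlap for 5 of the 16 clock genes, all with the higher mean under TNFR2 BA. Over all genes the shares were 8.54% higher and 7.27% lower. Other lists also held such genes, 6 higher and 2 lower of 26 NF-κB target genes. Of 21 colony stimulating factors, interleukins and chemokines they were 5 higher and 1 lower, and of 9 B cell genes 0.

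The JAK-STAT list (34 measured, median difference 0.16) had 1 gene with an unadjusted p under 0.05. This was Ptpn6, the phosphatase SHP-1 that acts on cytokine receptors, at 11.44, 10.10 and 11.12 against 9.30 and 8.53, with 11.46 on the excluded array. In the p53 target list (17 measured, median 0.59) Ccng1 read 9.36, 10.35 and 9.28 against 3.69 and 7.93, Ddb2, a sensor of DNA damage, 7.38, 11.02 and 12.87 against 8.53 and 2.68, and Tigar, a regulator of glycolysis, 7.30, 3.72 and 3.24 against 9.33 and 9.77. Ccng1 and Tigar did not overlap between groups and lay on opposite sides, and Ddb2 overlapped.

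The study named 5 genes from these arrays, and that choice was made on the same samples, so their directions are not independent evidence. They were Xiap, Mapk8, Itm2a, Prdx2 and Asb17. The study also measured Xiap and Mapk8 by qPCR in Lin-Kit+ cells of other MPN mice. There Xiap was significantly lower and Mapk8 trended lower in JAK2V617F+ than in JAK2V617F- cells. Both were significantly lower in CD34+ cells of myelofibrosis patients than in those of normal marrow. These qPCR data compare cells by mutation or disease and not by antibody. Prdx2, a peroxide-reducing enzyme abundant in red cells, read 2.22, 2.22 and 6.84 with TNFR2 BA against 8.10 and 9.29, and Asb17, a substrate adaptor of ubiquitin ligases, read 7.08, 2.22 and 2.22 against 8.87 and 9.38. Both lay at 2.22 on the excluded array, with the lower treated values. Neither passed adjustment (0.763 for both in limma), and with TNFR1 BA each gene was again at 2.22 on 2 of 3 arrays.

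Outside the lists, 10 genes per direction were taken as those of smallest p whose groups did not overlap. They were chosen for this contrast, so their values describe it. The 10 with higher means had differences from 3.31 to 8.37 and adjusted p from 0.0291 to 0.739, and the 10 with lower means differences from -8.20 to -1.79 and adjusted p from 0.0291 to 0.742.

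Besides Cry2, Xiap and Csf1, the genes with higher means included Agk, an acylglycerol kinase of mitochondria, at 8.40, 10.43 and 8.49 against 4.13 and 4.13. Hspa4l, a heat shock protein of the HSP110 family, read 8.53, 9.06 and 7.65 against 3.08 and 2.60. Asxl2, a chromatin regulator related to the myeloid tumour suppressor ASXL1, read 10.22, 10.83 and 9.52 against 6.76 and 7.00. Mkks, a chaperonin-like protein, read 8.60, 10.69 and 9.65 against 6.57 and 4.91, Tmem183a 9.37, 9.72 and 8.70 against 4.27 and 4.53, Lin7c, a cell polarity scaffold, 8.41, 9.31 and 9.06 against 5.07 and 2.22, and Zfp644, a zinc finger protein, 11.63, 10.93 and 9.15 against 7.17 and 5.50. The excluded untreated array fell on the untreated side for 5 of the 10, between the groups for 4 and on the treated side for 1.

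Besides Itm2a, the genes with lower means included Rsl1, a KRAB zinc finger repressor, at 2.22, 2.29 and 4.83 against 12.21 and 10.41. This was the widest gap on that side, measured by a probe set of the kind whose probes may match other sequences. Pcf11, a factor of transcript cleavage and termination, read 7.65, 2.38 and 4.51 against 11.01 and 10.75, and Fancl, the ubiquitin ligase of the Fanconi anemia pathway, 2.26, 3.68 and 2.27 against 9.30 and 8.71. Maged1 was at 2.22 to 2.23 on all 3 treated arrays and at 6.01 and 5.97 on the untreated ones, and Susd3 at 2.22 to 2.23 against 5.52 and 7.14. Slco2b1, an organic anion transporter, read 2.62, 2.68 and 2.26 against 7.48 and 9.40. The remaining members were Gm5617 (2.35, 3.44 and 3.69 against 6.62 and 8.01), Fam110a (2.62, 2.22 and 2.23 against 4.99 and 5.64) and 3110082I17Rik, which stayed bright at 12.74, 12.07 and 11.32 against 13.96 and 13.71. The excluded untreated array fell on the untreated side for 0 of the 10, between the groups for 4 and with the TNFR2 BA arrays for 6.

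**Figure D3:**
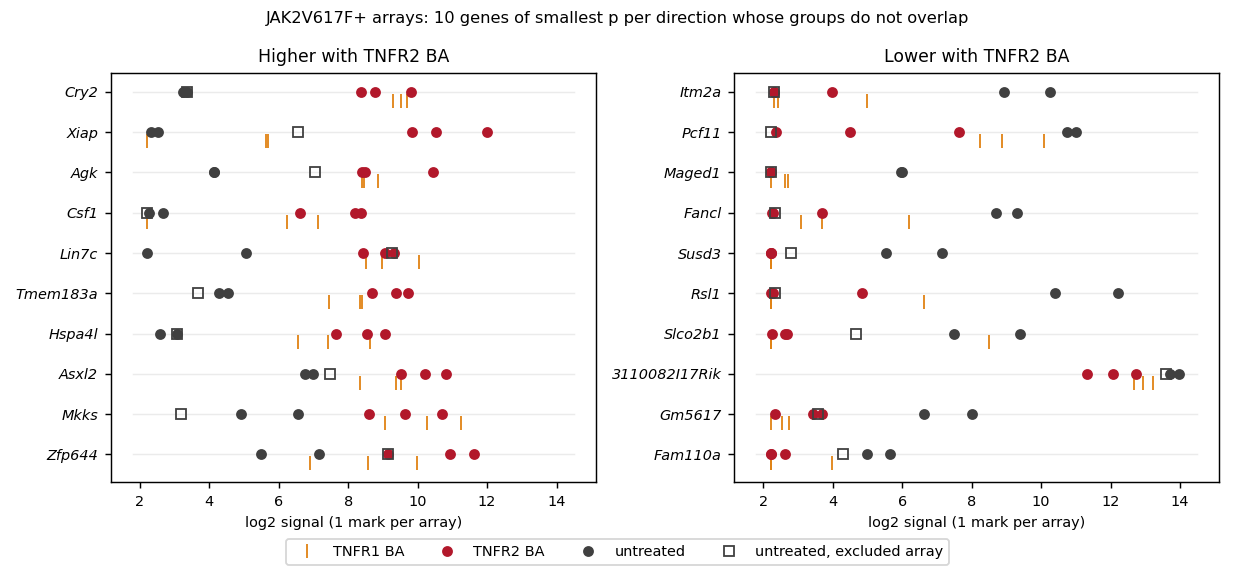
Log2 signal (horizontal axis) on each JAK2V617F+ array for the 10 genes of smallest p in each direction among those whose TNFR2 BA (red) and untreated (dark) arrays do not overlap, with TNFR1 BA arrays as orange ticks and the excluded untreated array as an open square. The open square lies with the untreated arrays for 5 genes on the left and for 0 genes on the right.

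Lists of progenitor and other cell types showed no adjusted call. Fewer cells of a type and less RNA per cell cannot be told apart in these bulk samples. The stem and progenitor list (26 measured, median 0.38) had 1 gene with an unadjusted p under 0.05, Hoxb4, a homeobox factor of stem cells, at 5.22, 8.41 and 7.02 against 2.51 and 3.22, with 2.51 on the excluded array. Mast cell and basophil genes (15 measured), erythroid genes (15), megakaryocyte genes (11), B cell genes (9) and T and NK cell genes (7) held 0 such genes in limma, with medians of 0.28, -0.06, 0.69, -0.34 and 0.10. Of the neutrophil granule genes (14 measured, median 0.57), Chil3 read 13.63, 12.27 and 13.85 against 13.25 and 9.99 and Gfi1, a repressor that drives granulocyte maturation, 12.83, 12.67 and 13.23 against 12.80 and 10.12. In both the low value was untreated replicate 2. The mean signal of this list was lowest in replicate 2 of all 6 groups. In JAK2V617F+ cells it was 9.55 with TNFR2 BA against 12.14 and 12.13 on the other arrays, and 9.02 untreated against 11.51. In JAK2V617F- cells it was 10.72 with TNFR2 BA against 11.93 and 12.33, and 10.23 untreated against 11.64 and 12.43. The untreated JAK2V617F+ group, which lacks a replicate 3, thus had the low replicate as 1 of 2 arrays. With the replicate number as a block, the Chil3 difference was 1.45 ± 0.44 (SE) beside 1.63 ± 0.70 without it. For Gfi1 it was 1.19 ± 0.53 beside 1.45 ± 0.61. The part of the low replicate in the results was not tested beyond the block fit.

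Monocyte, macrophage and dendritic cell genes (20 measured) had a median difference of 0.01. Cd14, the endotoxin co-receptor of monocytes, read 2.31, 2.22 and 2.22 with TNFR2 BA against 6.76 and 7.69, and 2.22 on the excluded array (limma adjusted p 0.763). The mean signal of this list ran from 6.60 to 6.94 on the treated arrays and was 5.85 and 8.16 on the untreated ones, so the 2 untreated arrays were further from each other than from any treated array. Interferon-induced genes (17 measured, median 0.03) held 2 genes with an unadjusted p under 0.05, both with higher means. Ifih1, the RNA sensor MDA5, read 8.75, 9.94 and 9.99 against 8.26 and 3.19, and Isg20, an exonuclease, 8.54, 7.98 and 7.08 against 6.15 and 2.22, while the excluded array read 11.35 and 7.90. Of 35 cell cycle and DNA replication genes (median -0.08), E2f2 read 7.88, 8.59 and 12.56 against 8.08 and 3.81, and Top2a, the topoisomerase of dividing cells, 7.29, 5.25 and 5.25 against 9.78 and 8.33, with 5.25 on the excluded array. Antioxidant enzymes (18 measured, median -0.02) and immediate early and heat shock genes (25 measured, median -0.22) each held 1 gene with an unadjusted p under 0.05, Prdx2 and Hspa4l. Of the 21 measured colony stimulating factors, interleukins and chemokines (median 0.60), Csf1 alone had such a p.

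**Figure D4:**
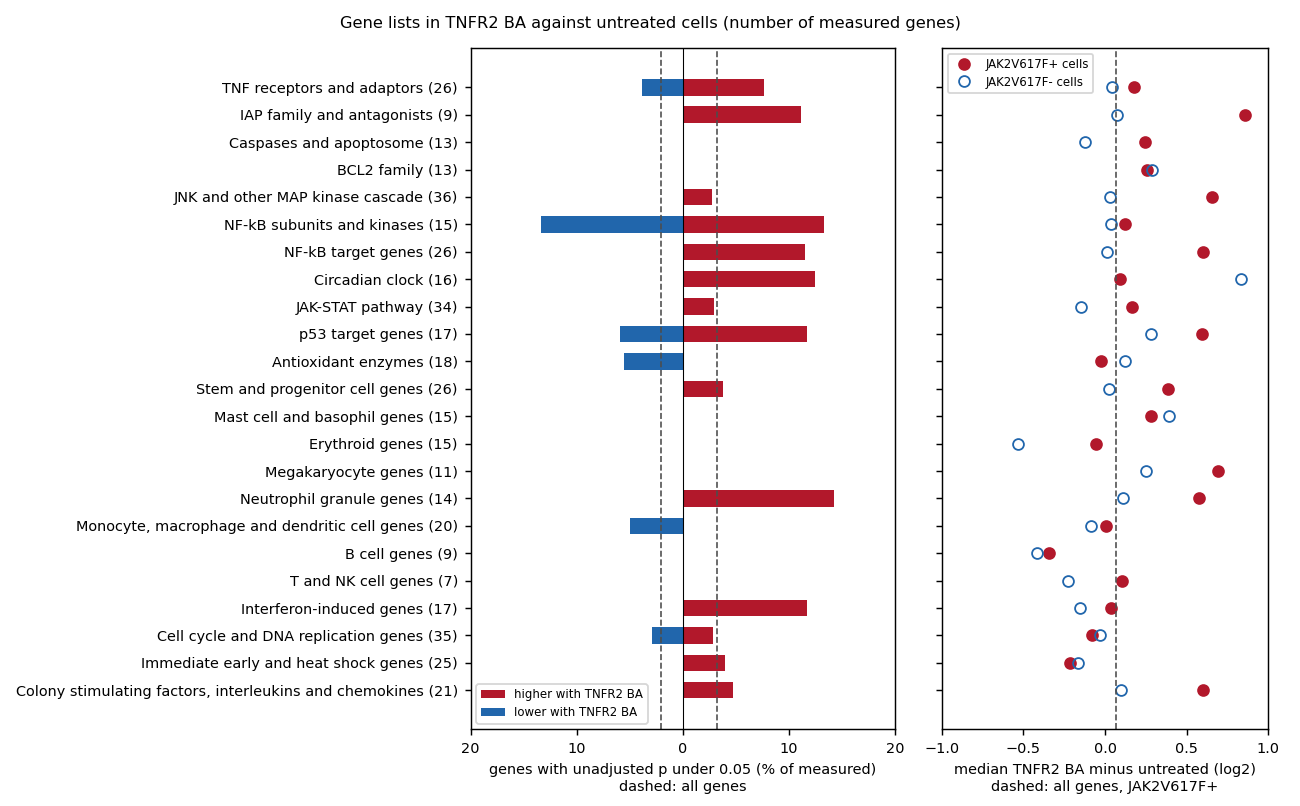
Share of each list's measured genes (number in parentheses) with an unadjusted limma p under 0.05 in JAK2V617F+ cells, higher (red, right) or lower (blue, left) with TNFR2 BA, with dashed lines at 3.26% and 2.05% of all genes, and on the right the list medians of the TNFR2 BA difference in JAK2V617F+ (filled) and JAK2V617F- cells (open). Bars rest on 0 to 3 genes each, and medians in JAK2V617F+ cells lie between -0.34 and 0.86.

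Whether the response belonged to JAK2V617F+ cells was addressed with JAK2V617F- cells of the same cultures, which share no array with the comparison above. TNFR2 BA gave 0 calls in JAK2V617F- cells in limma (0.0% of probe sets), and 255 probe sets had an unadjusted p under 0.05 (2.47%). For Cry2 the difference there was -0.59, for Xiap -0.67 and for Itm2a -0.83. The difference between the responses of the 2 genotypes was tested as an interaction, and no probe set passed adjustment in limma, with 396 at an unadjusted p under 0.05 (3.83%). This contrast holds the 5 JAK2V617F+ arrays of the main comparison, so its p is not separate support for genes chosen there. Of the 10 raised and 10 lowered genes described above, 9 and 10 had an unadjusted interaction p under 0.05 in limma. The smallest p in the interaction belonged to Cry2 (6.27 ± 1.15, SE, unadjusted p 3.76e-05, adjusted p 0.389) and Xiap (9.03 ± 1.77, unadjusted p 8.02e-05, adjusted p 0.414). Next came Maged1 (-5.00), Coro7 (-7.47) and Itm2a (-5.89), each with an adjusted p of 0.574 or more in limma. Coro7, a coronin of the Golgi, read 2.78, 2.49 and 2.49 against 7.41 and 7.25 in JAK2V617F+ cells and 6.33, 7.01 and 2.49 against 2.58, 2.50 and 2.58 in JAK2V617F- cells. For Mapk8 the JAK2V617F- difference was -0.49 and for Icam1 -1.74, with unadjusted interaction p of 0.00817 and 0.00218 (limma adjusted p 0.997). In 54 of 9636 genes (0.56%) the TNFR2 BA and untreated arrays did not overlap in either genotype and lay in opposite order, Rel among them. By the numbers of arrays alone, random order gives a share no smaller than this, so the count is not a result about these genes.

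TNFR1 BA in JAK2V617F+ cells was compared with the same 2 untreated arrays, so the values of both antibodies are given side by side and their likeness is not a result. TNFR1 BA gave 1 call in limma, Cry2 (0.00968% of probe sets), and 701 probe sets at an unadjusted p under 0.05 (6.78%). Cry2 read 9.69, 9.29 and 9.53 with TNFR1 BA, a difference of 6.19 beside 5.67 for TNFR2 BA, and Itm2a 2.44, 4.99 and 2.30, a difference of -6.35 beside -6.73. Xiap read 2.22, 5.69 and 5.64 with TNFR1 BA, all below the lowest TNFR2 BA array, and differed from untreated cells by 2.09 beside 8.37. Mapk8 read 3.37, 7.10 and 9.76, which covers both the untreated and the TNFR2 BA values, and differed by 3.91 beside 5.34. For 7 of the 10 raised and 9 of the 10 lowered genes described above, all TNFR1 BA arrays also lay beyond both untreated arrays. The sign of the TNFR1 BA difference was the same for 10 and 10. These genes were chosen with the same untreated arrays.

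The antibodies were compared directly over 3 against 3 arrays of JAK2V617F+ cells, without the untreated arrays. No probe set passed adjustment in limma and 452 had an unadjusted p under 0.05 (4.37%). Of the 10 raised and 10 lowered genes described above, 2 and 2 had such a p. The 3 TNFR2 BA arrays are those of the main comparison, so p here is not separate support for genes chosen there. In addition, the study picked Xiap and Mapk8 from these same arrays because their response differed between the antibodies. Xiap was 6.27 ± 1.18 (SE) higher with TNFR2 BA than with TNFR1 BA, at an unadjusted p of 5.11e-05 and an adjusted p of 0.264. For Mapk8 this difference was 1.44 with an unadjusted p of 0.286, for Cry2 -0.52 with 0.505 and for Itm2a -0.38 with 0.701 (limma adjusted p 1.0 for these 3). Clca3a1, a chloride channel accessory protein, had the smallest p, on a probe set of the kind whose probes may match other sequences. It read 4.35, 2.27 and 2.22 with TNFR2 BA against 8.52, 7.16 and 7.08 with TNFR1 BA (difference -4.64 ± 0.84, unadjusted p 3.28e-05, limma adjusted p 0.264). Untreated arrays read 2.22 and 2.52 for this gene, but the excluded array 9.59. Cops7a, a subunit of the COP9 signalosome, read 13.13, 11.79 and 11.21 against 9.63, 9.39 and 9.53. Gna12, a G protein subunit of RhoA signalling, read 10.22, 9.96 and 8.11 against 2.49, 2.44 and 4.33, with 2.79 and 7.78 in untreated cells. Zfp322a, a zinc finger factor, read 2.22, 3.09 and 2.31 against 8.11, 8.49 and 6.49. For each of these 5 genes the arrays of the antibodies did not overlap, and none passed adjustment.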

How the data were processed

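RNA of sorted Lin-Kit+ cells was amplified (Ovation Pico WTA), biotin-labelled and hybridised to Affymetrix mouse expression arrays. Expression Console of Affymetrix produced the table that the authors deposited, log2 signals of 10335 probe sets on 18 arrays. Neither its normalization nor the basis for keeping these probe sets is given in the sources used here. An array gives no read depth, so the number of arrays limits the precision. No detection calls came with the table, so low signals could not be told from background.

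The values were used as deposited, and 0 columns were left without a sample. Of the probe sets, 9651 had 1 gene symbol, 27 several and 657 none. Symbols of the platform annotation were updated through Entrez IDs, of which 9625 matched and 0 led to another symbol. Where a gene had more than 1 probe set, the one of highest mean over the 17 arrays stood for it. Promoters were matched to RefSeq by symbol.

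Means of 6 groups were fitted to the 17 arrays the study kept, with limma 3.58.1 in R 4.3.3, variances moderated with a trend, and Benjamini-Hochberg adjustment over all probe sets at 0.05. Contrasts were TNFR2 BA against untreated in each genotype, their difference, and TNFR1 BA against untreated and TNFR2 BA against TNFR1 BA in JAK2V617F+ cells. The fit was tested on simulated data. Tables were made with Python 3.11.15. The study's methods name paired t-tests for murine samples, with JAK2V617F+ and JAK2V617F- cells of a mouse as the pair. Here t-tests were run as an alternative on TNFR2 BA and untreated JAK2V617F+ arrays, unpaired and paired by replicate number, and the latter is not the pairing of the methods. The members, gene lists and comparisons were chosen with earlier results of these data known.

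Genes named were those with an adjusted p under 0.05, the 10 of smallest p per direction without overlap between groups, in each of 24 lists up to 4 genes of smallest p and any other with an unadjusted p under 0.05, the TNF receptor and IAP lists and the genes the study names, and the 5 of smallest p in the direct comparison and in the interaction. Genes of the closing part that were chosen after their values were seen are marked there.

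The study describes 3 independent experiments, and the labels number the arrays 1 to 3 in each group without saying that a number is an experiment. The mean correlation of deviations from the group means was 0.008 for arrays numbered 1, 0.071 for those numbered 2, 0.144 for those numbered 3 and -0.033 for arrays that differ in number, and 13 of 17 arrays were closest to arrays of their own number. Between the TNFR2 BA and untreated JAK2V617F+ arrays the correlation was -0.197 for replicate 1 and -0.012 for replicate 2. The fit without a replicate block is given first and blocked values where they change a call. If the arrays of a group are not from separate cultures, p-values measure technical spread only. Alternatives were all 18 arrays, the replicate block, both together (added after the data were seen), a fit on the compared groups only, quantile normalization, only the 8196 brighter probe sets, no variance trend, array weights, centring on array medians, t-tests, the probe set of smallest p per gene, and leaving out each array or replicate number.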

Additional observations from a re-analysis of the deposited data

Results flagged for a closer look

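For 5 of the 10 genes with higher means under TNFR2 BA, the untreated JAK2V617F+ array that the study excluded, which enters no comparison here, read above both untreated arrays that were used. Its log2 signal was 6.57 for Xiap, where the used arrays read 2.53 and 2.31. For Agk it was 7.05 against 4.13 and 4.13, for Lin7c 9.25 against 5.07 and 2.22, for Asxl2 7.48 against 6.76 and 7.00, and for Zfp644 9.14 against 7.17 and 5.50. With this array put back, the Xiap difference was 6.98 and its adjusted p 0.238 in limma. The array also had a lower median signal (6.05) and a lower mean correlation with other arrays (0.574) than the arrays used.

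Rel was set apart because TNFR2 BA and untreated arrays did not overlap in either genotype and lay in opposite order. In JAK2V617F+ cells it read 2.86, 5.52 and 7.68 with TNFR2 BA against 9.11 and 7.97, and in JAK2V617F- cells 9.88, 8.54 and 8.71 against 6.31, 8.08 and 7.77. The difference between the responses was -4.85 ± 1.88 (SE), with an unadjusted p of 0.019 and an adjusted p of 0.997 in limma. Over all genes, 54 of 9636 (0.56%) showed such opposite order, which is not above the share that arrays in random order give. Rel was chosen by the order of these same arrays, so its interaction p is not separate support.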

How the results depend on the processing

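Of the 3 calls in TNFR2 BA against untreated JAK2V617F+ cells, 3 stood after quantile normalization and after centring, with the same genes. A filter on dim probe sets left 2 (Cry2 and Xiap), no variance trend left 2 (Cry2 and Itm2a), all 18 arrays with the replicate block 2 (Cry2 and Xiap) and all 18 arrays 1 (Cry2). With the replicate block there were 0 calls (570 at an unadjusted p under 0.05), with a fit on the compared groups only 0 (323), with array weights 0 (308), and with a t-test paired by replicate number 0 on 2 pairs (333) and 0 on 3 pairs of all 18 arrays (254). The unpaired form gave 4 after Benjamini-Hochberg (Camk4, Hoxa4, Maged1 and Pimreg) and shared 0 with limma. Leaving out an array or a replicate number gave 0 to 55 calls here, 0 to 1 in JAK2V617F- cells, 0 to 132 for TNFR1 BA against untreated, 0 to 1 between the antibodies and 0 to 7 in the interaction, with the highest count for both untreated JAK2V617F+ comparisons and the interaction reached without untreated replicate 1, where the lone untreated array is assumed to vary like the other groups. In those fits Cry2, Xiap and Itm2a each passed in 2 of 8. Under the replicate block and with all 18 arrays the other comparisons kept their counts of 0, 1, 0 and 0. The cause of these shifts was not tested.

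Among 60 genes, 1093 of 1151 values kept their direction and their side of the threshold, 40 fell short of it, 6 newly passed and 12 turned sign, in 5 genes. Tnfrsf1b was -0.34 with all 18 arrays, with or without the block and in paired form, and Birc2 0.62 in the same settings. With arrays or replicate numbers left out, Birc2 ran from -1.83 to 0.33, Cflar from -5.47 to 0.0054, Tnfrsf1a from -1.25 to 1.07 and Chil3 from -0.0026 to 3.25. Medians of small lists moved with single arrays, that of the JNK list to -0.19 and that of the megakaryocyte list to -0.37 with all 18 arrays. Signals near the lowest value limit what differences of dim genes can show.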

Other observations

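Of the genes whose groups did not overlap in opposite order in the 2 genotypes, the 3 of smallest interaction p are given here and were chosen after their values were seen. Cblb, a ubiquitin ligase that restrains receptor signalling, read 8.27, 6.56 and 8.78 with TNFR2 BA against 5.33 and 3.23 in JAK2V617F+ cells and 3.25, 4.10 and 3.23 against 8.16, 8.29 and 6.89 in JAK2V617F- cells. Its interaction of 7.84 ± 1.94 (SE) had an unadjusted p of 0.000813 in limma. Galm, a sugar mutarotase, read 6.96, 6.56 and 6.70 against 2.39 and 2.44 in JAK2V617F+ cells, and 3.13, 5.54 and 5.50 against 7.59, 6.36 and 6.43 in JAK2V617F- cells. Osbpl7, an oxysterol-binding protein, read 4.69, 2.24 and 2.22 against 8.59 and 5.44, and 5.10, 3.90 and 5.19 against 2.24, 2.22 and 3.34. The adjusted p in the interaction was 0.997 for all 3 in limma. The excluded untreated array read 3.05 for Cblb, 2.34 for Galm and 2.24 for Osbpl7, the first and the second next to the untreated JAK2V617F+ arrays used and the last below both.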
